A study of Mus musculus with 6 samples.

Results

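The genes examined here are 10 PARP genes, Parp1, Parp2, Parp3, Parp4, Parp6, Parp8, Parp11, Parp16, Tnks and Tnks2, which encode enzymes that write ADP-ribose onto proteins. They were chosen by name, and all 10 were found among the 41819 genes of the count table. PARPs take ADP-ribose from NAD and attach it to proteins or to DNA ends, as single units or as chains (pADPr), and PARG cuts the chains. Parp1 makes most of the pADPr of a cell when DNA breaks, and Parp2 and Parp3 also respond to breaks. The tankyrases Tnks and Tnks2 act on Wnt pathway proteins, among others. In fibroblasts, as in most cells, Parp1 is known as a constant part of DNA repair and transcription control.

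The study asked which genes change when the PARG level rises, and PARG cuts the chains that some of these 10 enzymes make. A single clone of mouse 3T3 fibroblasts (labelled as malignant) was used, and it carries a lentiviral cassette with human PARG (hPARG) and mClover3 behind the TetOne promoter that doxycycline switches on. RNA came from 3 dishes without doxycycline (control) and 3 dishes that received doxycycline at 500 ng/ml during 72 h (hPARG cells), and all 6 dishes carried the cassette and grew under puromycin. The labels speak of wells of a 6-well plate and the methods of larger dishes, and each sample is called a dish here. No library of cells given doxycycline without the cassette was analysed here, so hPARG and doxycycline cannot be told apart, and the replicates are dishes of 1 clone. The values are counts and RPKM (reads scaled to gene length and to library size) for mouse genes, so hPARG itself has no value. Reads were mapped to the mouse genome with a similarity fraction of 0.8, and whether hPARG reads were counted on mouse Parg was not tested. The mouse gene Parg had an RPKM of 8.19, 9.80 and 7.85 without doxycycline, and the hPARG dishes held 8.24, 9.69 and 8.01. Its log2 fold change was 0.04 (95% interval -0.22 to 0.30, n = 3 dishes per group).

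Between 21619908 and 25263818 counts per dish fell on genes, and 3 counts, the limit that a count of 0 allows, were worth 0.119 to 0.139 CPM (counts scaled to library size), for counting error only. Of the 10 fibroblast markers looked at, 8 had a mean RPKM above 1, led by Vim (1548) and S100a4 (1389), while Dcn was at 0.126. The 10 markers summed to an RPKM of 3188 to 3565 in control and 3391 to 3815 in hPARG dishes. Of 12 markers of other cell types, 6 were below an RPKM of 0.1, among them Ptprc, Epcam and Pecam1, and Adgre1 was at 0. Above a mean RPKM of 1 were 3 of the 12, Tubb3 (5.22), Des (1.51) and Alb (1.32). The sum of the 12 lay between 8.62 and 9.58 in control and 7.79 and 10.04 in hPARG dishes. Of the 9 fibroblast markers tested 0 had a false discovery rate (FDR) under 0.05 in edgeR, but 4 had an unadjusted p under 0.05 (3.95% of all tested genes had) and groups that did not overlap in CPM (9.62% of all). The log2 fold changes of these 4 were 0.30 for Thy1, 0.58 for Col1a1, 0.39 for Col3a1 and -0.40 for Pdgfra, and in RPKM the groups of Col1a1 and Col3a1 overlapped. The part of these markers in the results was not tested. The dishes numbered 2 stood apart. Along the main axis of variation in log2 CPM, which held 42.0% of the variance, they lay at 21.6 (control) and 24.7 (hPARG), and the other 4 dishes between -27.4 and -3.17. Results are therefore also given without both of these dishes. RNA-seq values are shares of a library, so fewer cells with an RNA and less of it per cell cannot be told apart.

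The promoters are shown first, to give the sequence at the start of these genes, which differed widely in CG content. Of the 10 genes, 9 had a promoter in the RefSeq table (GRCm38.p6), with 250 bases before and 50 bases after the start site. Parp11 had 2 such windows and Tnks had none, so the 10 windows are those of 9 genes. The 4 windows below are those of the genes with the highest RPKM, Tnks2 and Parp1, of Parp3, which shares its window with a neighbour, and of Parp16, the gene with the fewest CG among those with 1 window. CG dinucleotides are in capitals. The window of Tnks2 is chr19:36833982-36834281 (plus strand), that of Parp1 is chr1:180568641-180568940 (plus strand), that of Parp3 is chr9:106476900-106477199 (minus strand) and that of Parp16 is chr9:65214440-65214739 (plus strand).
Tnks2: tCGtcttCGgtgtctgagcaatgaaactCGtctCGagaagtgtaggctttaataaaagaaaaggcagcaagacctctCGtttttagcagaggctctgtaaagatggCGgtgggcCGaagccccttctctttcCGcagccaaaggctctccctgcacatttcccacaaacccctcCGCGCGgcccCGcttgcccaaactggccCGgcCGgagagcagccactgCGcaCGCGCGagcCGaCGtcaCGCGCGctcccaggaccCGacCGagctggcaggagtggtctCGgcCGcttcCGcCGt
Parp1: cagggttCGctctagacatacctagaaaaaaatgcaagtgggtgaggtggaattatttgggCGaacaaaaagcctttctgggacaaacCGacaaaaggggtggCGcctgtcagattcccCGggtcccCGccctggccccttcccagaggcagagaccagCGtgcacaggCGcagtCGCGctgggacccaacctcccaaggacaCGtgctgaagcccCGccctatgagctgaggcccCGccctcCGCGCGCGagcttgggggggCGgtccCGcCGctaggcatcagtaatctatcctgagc
Parp3: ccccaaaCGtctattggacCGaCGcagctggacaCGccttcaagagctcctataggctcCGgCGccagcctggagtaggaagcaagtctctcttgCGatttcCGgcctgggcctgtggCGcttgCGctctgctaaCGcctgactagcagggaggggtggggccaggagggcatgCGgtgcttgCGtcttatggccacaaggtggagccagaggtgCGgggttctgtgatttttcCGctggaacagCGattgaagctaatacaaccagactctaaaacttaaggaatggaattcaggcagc
Parp16: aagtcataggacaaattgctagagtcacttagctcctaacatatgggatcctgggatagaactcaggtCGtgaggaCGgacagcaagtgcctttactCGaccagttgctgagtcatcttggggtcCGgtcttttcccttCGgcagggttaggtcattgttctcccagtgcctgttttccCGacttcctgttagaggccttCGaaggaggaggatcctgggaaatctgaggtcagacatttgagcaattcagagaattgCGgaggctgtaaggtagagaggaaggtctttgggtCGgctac

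The windows of Tnks2 and Parp1 held 29 and 20 CG, against 16 for Parp3 and 9 for Parp16. The median was 22.5 CG over the 10 windows and 7 over all 32851 windows of the table. Parp8 held the most, 37, and 94.4% of all windows held fewer. The motif TATAAA was searched on both strands and found in 0 of the 10 windows, against 13.6% of all windows. The letters GGGCGG, a GC box, were found on either strand in 6 of the 10, against 35.7% of all windows. They were in the windows of Parp1, Parp2, Parp4, Parp6 and Parp8 and in 1 of the 2 windows of Parp11, the one with 25 CG and not the one with 5. The 10 windows are not independent draws, and these matches are descriptions. The window of Parp16 lies inside its longer gene model in GENCODE release M21 (chromosome 9, 65195353 to 65239224). The window of Parp3 overlaps by 141 bases that of Rrp9, a gene for a protein of ribosomal RNA processing that starts on the other strand. Rrp9 had a mean RPKM of 52.8 ± 4.05 (SD, n = 3) in control and 47.5 ± 4.12 in hPARG cells. Parp3 stood at between 0.0755 and 0.111 of the RPKM of Rrp9 in the 6 dishes.

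All 10 genes were expressed, with between 131 and 7614 counts per dish, and all 10 passed the filter on low counts. The RPKM of 9 of them was above 1 in every dish, and Parp4 lay around 1. Tnks2 and Parp1 had the highest RPKM in each of the 6 dishes, in this order, and together they made up 62.4% to 65.2% of the summed RPKM of the 10 genes in control and 61.8% to 64.2% in hPARG dishes. Parp2 followed as the third in every dish, and Parp4 was the lowest in every dish. Over the 6 dishes the ranges of Tnks2 and Parp1 overlapped, as did those of Tnks and Parp8. The ranges of Parp3 and Parp6, of Parp6 and Parp11 and of Parp11 and Parp16 also overlapped, so over all dishes the spread of these neighbours was as wide as the step between them. Within a dish, Tnks2 was above Parp1, Parp3 above Parp6 and Parp6 above Parp11 in all 6, while Tnks and Parp8, and Parp11 and Parp16, changed places between dishes. Parp2 stood clear of Parp1 above it and of Tnks below it. RPKM depends on the gene length that was used, which is not stated. With CPM per kilobase of annotated exons instead, Parp1 (29.7) came before Tnks2 (27.7), and Parp6 moved from the seventh to the ninth place. The first 2 genes then made up 65.7% to 69.1% of the sum.

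**Figure D1:**
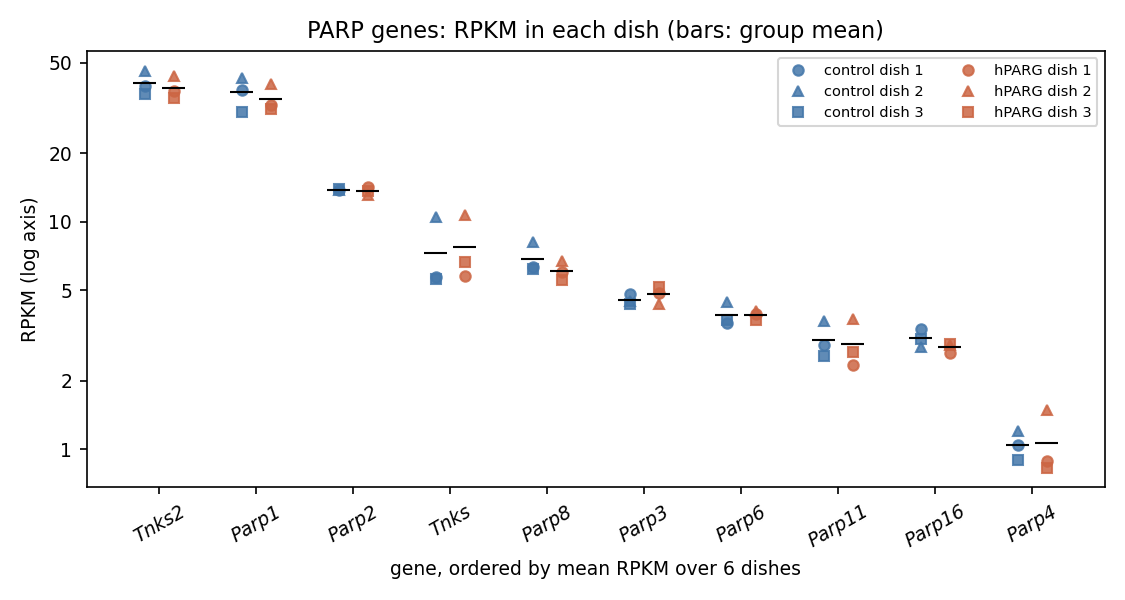
RPKM of the 10 PARP genes in each dish on a log axis, with control dishes in blue, hPARG dishes in orange, a marker shape for each dish number and a black bar for the mean of 3 dishes. Tnks2 and Parp1 lie between 30.4 and 46.2 and Parp4 between 0.831 and 1.48, and the dishes of both groups overlap for every gene.

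No PARP gene was higher or lower in hPARG cells than in control by the test used. With edgeR's quasi-likelihood test over 11509 genes, 0 of the 10 had an FDR (Benjamini-Hochberg) under 0.05, where 0.0869% of all tested genes (10 genes) did. Their FDR was 0.999 for each. At an unadjusted p under 0.05 there were 0 of 10, against 3.95% of all tested genes, and DESeq2 also called 0. The CPM of the 3 hPARG dishes overlapped that of the 3 control dishes for all 10 genes, while the groups did not overlap for 9.62% of all tested genes. In value 5 of the 10 were above and 5 below control, with log2 fold changes between -0.14 and 0.12. The median was -0.0040 for the 10 and 0.0038 for all tested genes, and the median size of the change was 0.0579 and 0.0931. These are small differences beside the spread between dishes, and the 95% intervals show what size of change the 3 dishes per group leave possible. For 9 of the 10 genes the intervals lay between 0.728-fold and 1.49-fold. For Tnks the interval ran from 0.687-fold to 1.72-fold.

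**Figure D2:**
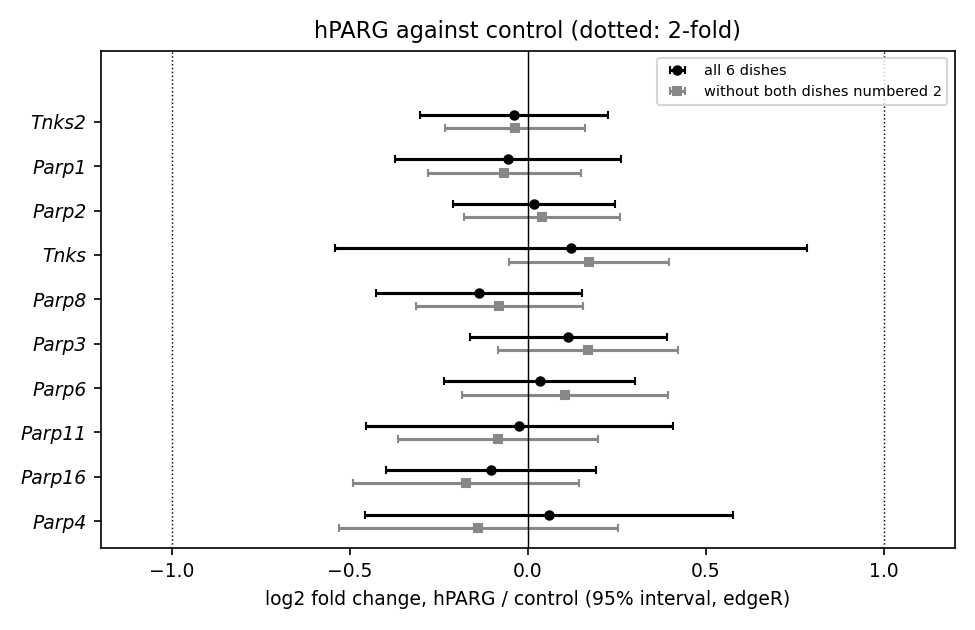
Log2 fold change of hPARG over control for the 10 PARP genes, with 95% intervals from edgeR, in black for all 6 dishes and in grey without both dishes numbered 2. Every interval includes 0 and lies inside 2-fold (dotted lines), and that of Tnks is the widest, from -0.54 to 0.79.

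Among the genes that act at DNA breaks, Parp1 (ENSMUSG00000026496, chromosome 1, 180568924 to 180601254, GRCm38) encodes the main nuclear PARP. In the order of the dish numbers, its RPKM was 38.0, 42.7 and 30.4 in control, with a mean of 37.1 ± 6.20 (SD, n = 3). In hPARG cells it was 32.6, 40.6 and 31.3, with a mean of 34.8 ± 5.02. The highest value of each group was in dish 2, and the groups overlapped over most of their range. The log2 fold change was -0.06 (standard error 0.137, 95% interval -0.37 to 0.26). Without both dishes numbered 2 it was -0.07 (interval -0.28 to 0.15).

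Parp2 (ENSMUSG00000036023, chromosome 14, 50807841 to 50821301) encodes a smaller nuclear enzyme that, like Parp1, makes chains at breaks. It was the steadiest of the 10, with an RPKM of 13.8, 13.7 and 13.9 in control and 14.3, 13.1 and 13.6 in hPARG dishes. Its log2 fold change was 0.02 (standard error 0.0983, 95% interval -0.21 to 0.24). In log2 CPM it was lower in the dishes where Parp1 was higher, with a Pearson's r of -0.964 over the 6 dishes, given as a description because the values share libraries and both dishes numbered 2 stand apart. The ratio of Parp1 to Parp2 in RPKM was 2.76, 3.11 and 2.18 in control and 2.29, 3.09 and 2.30 in hPARG dishes. Parp3 (ENSMUSG00000023249, chromosome 9, 106470322 to 106476949) encodes an enzyme that adds single units at breaks. Its RPKM was 4.81, 4.47 and 4.34 in control and 4.87, 4.34 and 5.17 in hPARG dishes. The highest value was in hPARG dish 3, the groups overlapped, and its log2 fold change of 0.11 (95% interval -0.16 to 0.39) did not pass the test.

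The tankyrases add chains to axin, among other proteins. Tnks2 (ENSMUSG00000024811, chromosome 19, 36834232 to 36893477) had an RPKM of 39.7, 46.2 and 36.5 in control and 37.4, 43.8 and 35.2 in hPARG dishes. Dish 2 was again the highest in both groups, and the log2 fold change was -0.04 (standard error 0.114, 95% interval -0.30 to 0.23). Tnks (ENSMUSG00000031529, chromosome 8, 34826460 to 34965690) was much lower, with an RPKM of 5.73, 10.5 and 5.59 in control and 5.79, 10.7 and 6.68 in hPARG dishes. Both dishes numbered 2 held nearly the same level, at 1.86 times the mean of the other control dishes and 1.72 times that of the other hPARG dishes. The log2 fold change of Tnks was 0.12 with a standard error of 0.286, the largest of the 10. Without both dishes numbered 2 it was 0.17, and the interval narrowed to between -0.05 and 0.40 (FDR = 0.822, edgeR). The ratio of Tnks2 to Tnks in RPKM was 6.93, 4.40 and 6.52 in control and 6.47, 4.10 and 5.27 in hPARG dishes, so the balance of the pair was set apart in dish 2 of both groups. Of the exon bases of Tnks, 4.27% also lie in exons of Gm9939 on the other strand, and whether strand was used in counting is not given in the sources used here.

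Parp6, Parp8, Parp11 and Parp16 encode enzymes that add single units. Parp8 (ENSMUSG00000021725, chromosome 13, 116854820 to 117025537) had an RPKM of 6.31, 8.12 and 6.20 in control and 6.01, 6.74 and 5.57 in hPARG dishes. The control dish 2 was the highest of the 6 and the groups overlapped. Its log2 fold change of -0.14, the lowest of the 10, had a 95% interval from -0.43 to 0.15. Parp16 (ENSMUSG00000032392), a membrane protein of the endoplasmic reticulum known from the unfolded protein response, had an RPKM of 3.37, 2.82 and 3.06 in control and 2.66, 2.86 and 2.91 in hPARG dishes. Its log2 fold change was -0.10 (95% interval -0.40 to 0.19).

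Parp6 (ENSMUSG00000025237, chromosome 9, 59617284 to 59650285) had an RPKM of 3.57, 4.45 and 3.70 in control and 3.94, 4.07 and 3.70 in hPARG dishes, with means of 3.91 and 3.90. Its log2 fold change was 0.03 (95% interval -0.23 to 0.30). Parp11 (ENSMUSG00000037997, chromosome 6, 127446840 to 127494261), whose product is found at the nuclear envelope, had an RPKM of 2.88, 3.66 and 2.56 in control and 2.34, 3.72 and 2.67 in hPARG dishes. Here too dish 2 was the highest of each group, and the log2 fold change was -0.02 (95% interval -0.46 to 0.41).

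Parp4 (ENSMUSG00000054509, chromosome 14, 56575619 to 56659794) encodes the PARP of the vault, a large ribonucleoprotein particle. It was the least expressed, with an RPKM of 1.04, 1.21 and 0.897 in control and 0.888, 1.48 and 0.831 in hPARG dishes. The highest value was in hPARG dish 2, at 1.73 times the mean of the other hPARG dishes. Its log2 fold change was 0.06 (95% interval -0.46 to 0.58) with all dishes and -0.14 (interval -0.53 to 0.25) without both dishes numbered 2. Gm16573, on the other strand, shares 5.13% of the exon bases of Parp4.

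Dish 2 had the highest RPKM of its group in both groups for 7 of the 10 genes, Parp1, Parp4, Parp6, Parp8, Parp11, Tnks and Tnks2, as it had for 40.1% of all tested genes. The 3 others, Parp2, Parp3 and Parp16, have the shortest exons of the 10 (3628, 3699 and 3886 bases), and Tnks has the longest (14888 bases). The deviation of dish 2 from its group mean in log2 CPM was 0.55 (control) and 0.49 (hPARG) for Tnks. For Parp16 it was -0.17 and -0.0083, and for Parp3 -0.07 and -0.17. Across the 10 genes it followed exon length with a Spearman's rho of 0.661 in control and 0.648 in hPARG dishes. Across all tested genes rho was 0.53 and 0.521. Genes of 1 library share its preparation and are not independent, so no p is given, and the part of gene length in these levels was not tested. Each dish's own trend with gene length was also taken out, using the length implied by the deposited counts and RPKM instead of exon length. In that fit 0 of the 10 genes was called, and the log2 fold change of Tnks was 0.05.

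**Figure D3:**
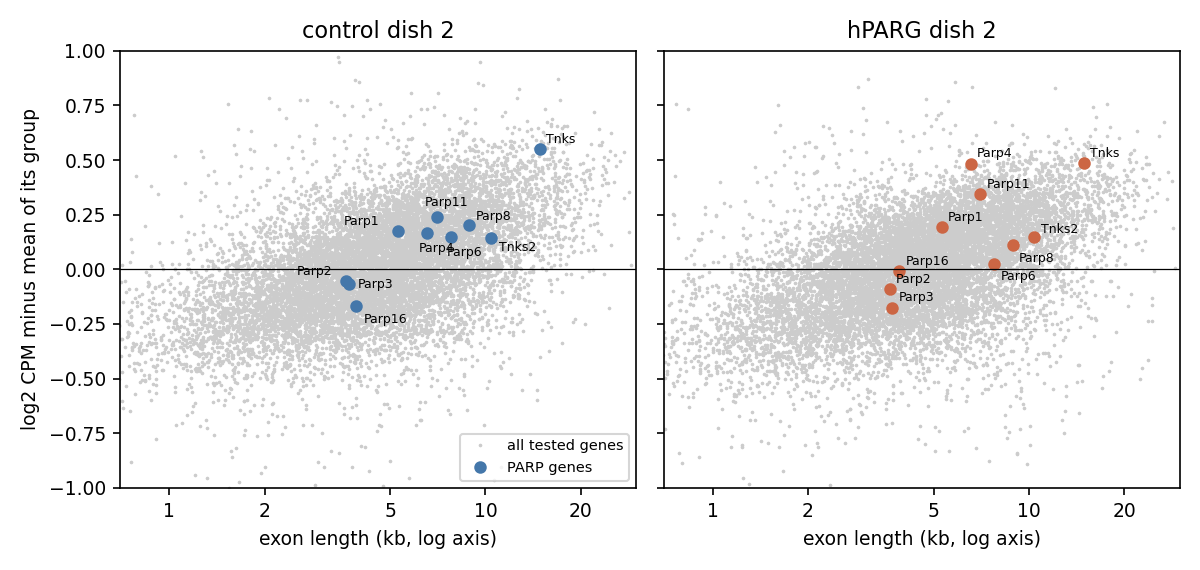
Deviation of dish 2 from the mean of its group in log2 CPM against annotated exon length (log axis), for all tested genes (grey) and the 10 PARP genes (colour), with control on the left and hPARG on the right; 124 and 117 genes lie outside the axes. Tnks, with the longest exons of the 10, lies at 0.55 and 0.49, and Parp2, Parp3 and Parp16, with the shortest, lie below 0 in both panels.

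The 3 tested genes whose log2 CPM over the 6 dishes was most like that of Parp1 were Map2k4 (Pearson's r = 0.997), which encodes a kinase of the JNK pathway, Slc6a8 (r = 0.995), the creatine transporter, and Topors (r = 0.995), a ubiquitin and SUMO ligase. In each of them the highest value of either group was in dish 2. Map2k4 had 73.9, 78.5 and 66.6 CPM in control and 69.4, 77.9 and 68.0 CPM in hPARG dishes. They are the best of all tested genes over only 6 dishes, and r is given as a description.

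The other genes of the ADP-ribose pathway were looked at in 5 lists, and 0 of their tested genes had an FDR under 0.05 in the same test. The 6 other PARP family genes were all tested. Each was lower in hPARG cells in value, with a median log2 fold change of -0.23, where that of all tested genes was 0.0038. Tiparp (-0.016) and Zc3hav1 (-0.057) hardly differed between the groups. Genes of 1 library are not independent, so the shared direction is a description. An unadjusted p under 0.05 was found for 1 of the 6, against 3.95% of all tested genes. The lowest log2 fold change was that of Parp14, another antiviral PARP, at -0.45 (95% interval -1.12 to 0.21). The 1 gene was Parp12, an antiviral PARP induced by interferon, at a log2 fold change of -0.35 (standard error 0.124), with no overlap between the groups in CPM (FDR = 0.999), as for 9.62% of all tested genes. Zc3hav1, an antiviral RNA-binding protein without catalytic activity, and Tiparp, a target of the aryl hydrocarbon receptor, had the highest RPKM of the 6. Zc3hav1 had a mean RPKM of 20.6 in control and 19.3 in hPARG cells, and Tiparp of 19.0 and 18.4.

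Of 9 genes for enzymes that remove ADP-ribose and for their relatives, 5 were tested, with log2 fold changes between -0.14 and 0.38. Adprh, which takes ADP-ribose off arginine, had a mean RPKM of 29.5 in control and 29.3 in hPARG cells. Adprhl2, which takes it off serine, had 18.5 and 16.4 (log2 fold change -0.14, standard error 0.139). Parp1 stood at 4.64, 4.36 and 3.88 times the RPKM of mouse Parg in control and 3.96, 4.19 and 3.90 times in hPARG dishes.

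All 11 genes for Parp1 cofactors and pADPr readers were tested, with log2 fold changes between -0.13 and 0.08. The highest RPKM were those of H2afy, with means of 49.5 and 46.9, and of Hpf1, with 34.9 in both groups. H2afy encodes a histone variant that binds ADP-ribose in some splice forms, which values per gene do not tell apart. Hpf1 directs Parp1 and Parp2 to serine. All 11 genes listed as partners and substrates of the tankyrases were tested, and Rnf146, a ubiquitin ligase that reads pADPr, is in both lists. Whether each of the 11 is a partner or substrate in mouse cells was not tested. Their log2 fold changes lay between -0.24 and 0.44, the latter for Axin2, whose mean RPKM was only 0.0862. Tnks1bp1, a tankyrase-binding protein, had a mean RPKM of 36.2 and 36.5. Axin1, a tankyrase substrate of the Wnt pathway, had 31.4 and 28.0, with overlapping groups. In CPM it was the 1 gene of the 11 whose groups did not overlap (log2 fold change -0.13, standard error 0.0917), against 9.62% of all tested genes. Of 12 genes of NAD supply 8 were tested, with log2 fold changes between -0.06 and 0.17. Nadk, which makes NADP from NAD, had a mean RPKM of 43.2 and 41.6, and Nampt, the rate-limiting enzyme of NAD salvage, had 25.3 and 23.7.

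**Figure D4:**
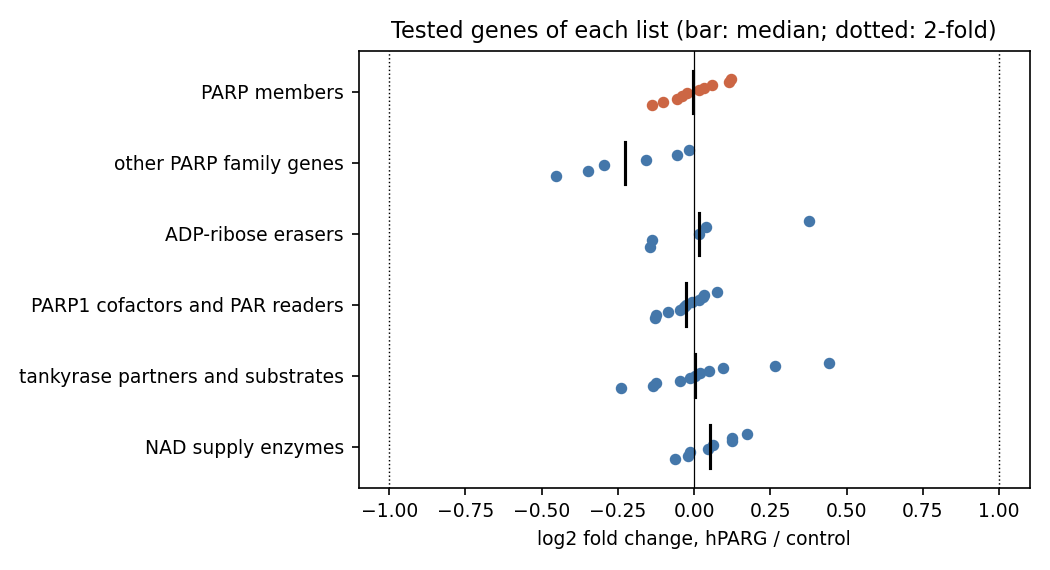
Log2 fold change of hPARG over control for each tested gene of the PARP members (orange) and of 5 lists of the pathway (blue), with the list median as a bar and 2-fold as dotted lines. The medians are -0.0040 for the members, -0.23 for the 6 other PARP family genes and between -0.03 and 0.05 for the other lists, and no gene reaches 2-fold.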

How the data were processed

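Poly(A) RNA of 6 dishes was sequenced in paired ends, and the authors trimmed the reads and mapped them to GRCm38 with Ensembl release 96 in CLC Genomics Workbench 12 (mismatch cost 2, insertion and deletion costs 3, length and similarity fractions 0.8, up to 10 hits per read). For 41819 genes the authors deposited raw counts, as whole numbers without normalization. RPKM values were deposited beside them, and their gene lengths and library totals are not given in the sources used here. Columns of the authors' own comparison (fold changes and p-values) were not used, nor were their TPM and CPM.

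In edgeR 4.0.16 (R 4.3.3), filterByExpr with a minimum count of 10 kept 11509 genes. TMM factors were used, and glmQLFit with glmQLFTest compared the groups. Each group had 3 dishes, taken from the sample titles. A gene was called at an FDR under 0.05 over all tested genes. Standard errors are the absolute log2 fold change over the square root of F, and intervals are 95%. CPM are TMM-normalized. Gene models are from GENCODE release M21 (GRCm38), and exon length is the union of a gene's exons. Promoters are from RefSeq (GRCm38.p6).

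Named genes were the 10 members, mouse Parg, and in each list the called genes and the 2 with the highest mean RPKM, with the 3 genes most like Parp1. Rrp9, Parp12, Axin2, Rnf146, Parp14, Gm9939, Gm16573 and the named markers were added after their values were seen. The members and lists were chosen with earlier results of these data known. Alternatives were RLE and library-size scaling, no filter, DESeq2 1.42.0, the replicate block, gene length offsets (splines with 4 degrees of freedom per dish), both of the last together, each dish left out, both dishes numbered 2 left out, and a 2-fold threshold. Gene length offsets used the length implied by the deposited counts and RPKM, not exon length. The main fit, the replicate block, the gene length offsets and DESeq2 were first tested on simulated data, and the other alternatives were not. The simulated data held no block effect and random gene lengths, so they could not check how well the block or the offsets correct. CPM per kilobase of exons was an addition made after seeing the data. Precision is limited by 3 dishes per group.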

Additional observations from a re-analysis of the deposited data

How the results depend on the processing

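In all 14 alternative fits 0 of the 10 PARP genes was called, with FDR values of 0.324 or more. Of the 140 alternative log2 fold changes of the 10 genes, 123 kept the direction of the reported value and 17 did not, and all lay between -0.23 and 0.45. The direction of these uncalled differences is therefore not settled. Parp2 was at -0.012 with library size only. Parp4 was at -0.14 without both dishes numbered 2 and at -0.0048 with the replicate block and gene length offsets. Over the 6 fits that lacked 1 dish, the log2 value ran from -0.16 to 0.034 for Parp1, from -0.014 to 0.060 for Parp2, from -0.23 to 0.19 for Parp4, from -0.025 to 0.11 for Parp6, from -0.22 to 0.11 for Parp11, from -0.16 to 0.45 for Tnks, from -0.12 to 0.036 for Tnks2 and from -0.031 to 0.12 for Parg. Those of Parp3, Parp8 and Parp16 kept their sign. The 10 genes called among all tested became 16 with no filter on low counts, 52 with DESeq2, 28 with gene length offsets and 40 without both dishes numbered 2. Over the fits that lacked 1 dish they ranged from 3 (without hPARG dish 1) to 13, with 5 without hPARG dish 3; the cause was not tested. By annotated exon length, 4 of the 10 members kept their place in the order of levels. By the length implied by the deposited RPKM all 10 did. The latter is no separate check, because that length was computed from the same counts and RPKM.

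Dishes carry the numbers 1 to 3 in both groups, and the sources used here do not state whether equal numbers share a batch. The deviations of dishes with equal numbers from their group means had an r across genes of 0.0963, 0.610 and 0.168. For different numbers r lay between -0.441 and 0.335, and 2 of the 6 dishes correlated best with their own number. The relative spread between dishes that edgeR estimated (biological coefficient of variation) fell from 0.148 to 0.0615 once dish number entered the fit. A batch shared by number was not tested. With the replicate block 330 genes were called, 0 of them among the 10 PARP genes, and 365 with the block and gene length offsets. Of the listed pathway genes 1 was called with the block, in either form, Parp14 (FDR = 0.0157 with the block alone, at a log2 fold change of -0.45 without it). Among the fibroblast markers, Fn1, Thy1, Col1a1, Col3a1 and Pdgfra also had an FDR under 0.05 with the block. The block changed no call of the 10 PARP genes or of mouse Parg.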
